A study of Mus musculus with 13 samples.

Results

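The endothelin system was examined in midbrain RNA-Seq of 13 mice through 6 of the 49315 genes in the count files: the ligands Edn1 and Edn3, the receptors Ednra and Ednrb, and the converting enzymes Ece1 and Ece2. The genes were chosen by name, and Edn3 was chosen by its fitted values: it was picked because its response to MPTP differed between the genotypes in these same libraries. All Edn3 fold changes below, and the differences between the responses of the 2 genotypes for every member, are therefore descriptions without a test. All 6 members passed the filter on low counts, which 19360 genes passed.

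Endothelins are short secreted peptides that are cut from longer precursors, first by furin-type proteases and then by the endothelin converting enzymes. They act on G protein-coupled receptors. EDNRA, found on vascular smooth muscle, drives constriction. EDNRB binds all endothelins alike, is found on endothelium and on glia, and in the brain is best known from astrocytes. Endothelin-3 and EDNRB are also known for their role in neural crest development.

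Every mouse was homozygous for the floxed Ripk3 allele (Ripk3fl/fl), was male, was 8 to 12 weeks old and received tamoxifen at 60 mg/kg on 5 days. Cre+ mice (Ripk3fl/fl Aldh1l1Cre+) carried a tamoxifen-inducible Cre driven by Aldh1l1, an astrocyte gene, and Cre- littermates (Ripk3fl/fl Aldh1l1Cre-) carried no Cre. MPTP, a toxin of dopaminergic neurons, was given at 20 mg/kg daily on 5 days, and midbrain was taken 3 days later. Cre- Saline, Cre+ Saline and Cre- MPTP held 3 mice each, and Cre+ MPTP held 4. Whole tissue was sequenced, so fewer cells of a type and less RNA per cell cannot be told apart.

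Totals per library ran from 11489150 to 29397278 counts (median 24907639). The shallowest library was Cre- MPTP replicate 1, with counts in 21101 genes against 25432 to 27186 in the other libraries. It also differed in makeup, with neuron markers at a sum of 4970 CPM (counts scaled to library size) against 7200 to 8570 elsewhere, arterial markers at 227 against 110 to 149 and ependymal markers at 93.7 against 27.8 to 47.2. Cre+ MPTP replicate 4 carried muscle RNA, with a summed level of 7550 CPM over 10 cardiac and skeletal muscle genes against 28.7 to 189 elsewhere. Pituitary genes summed to 1050 and 900 CPM in Cre+ Saline replicates 1 and 3 and to 285 to 513 CPM in the other libraries. Ripk3, the targeted gene, had 4 to 11 counts in Cre- Saline, 6 to 10 in Cre+ Saline, 6 to 40 in Cre- MPTP and 4 to 19 in Cre+ MPTP, too few to check the genotype of a library. All 10 dopaminergic neuron markers and all 12 astrocyte markers had counts in every library.

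The 2 ligand genes encode peptides that are close relatives. The coding bases of the mature peptide are shown for both so that the 2 peptides can be compared. The rest of the precursors was not compared. They were read from GENCODE M21 transcripts (GRCm38), 5′ to 3′ on the plus strand, at chr13:42303649-42303711 in exon 2 for Edn1 and chr2:174761749-174761811 in exon 2 for Edn3. Capitals mark the bases that differ between them.
Edn1: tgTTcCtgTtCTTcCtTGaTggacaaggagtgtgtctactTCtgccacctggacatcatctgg
Edn3: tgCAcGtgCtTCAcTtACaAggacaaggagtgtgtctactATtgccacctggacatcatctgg
Of the 63 bases 50 were the same, and 15 of the 21 codons gave the same amino acid. The first 7 codons held 5 of the 6 that gave another amino acid, and the last 14 codons held 1. The 4 cysteine codons, whose residues form the disulfide bridges, gave the same amino acid in both.

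Edn3 (ENSMUSG00000027524, chr2:174760619-174784042, GRCm38) is the ligand with high affinity for EDNRB only. Its counts were 147, 145 and 222 in Cre- Saline, 123, 113 and 142 in Cre+ Saline, 12, 27 and 27 in Cre- MPTP, and 137, 66, 97 and 112 in Cre+ MPTP. Scaled to library size with TMM factors, these were 5.83, 5.66 and 8.11 CPM in Cre- Saline and 4.85, 4.60 and 5.41 CPM in Cre+ Saline. Under MPTP they were 1.30, 1.07 and 0.89 CPM in Cre- mice and 5.06, 3.69, 4.30 and 4.27 CPM in Cre+ mice. The 3 Cre- MPTP libraries were the 3 lowest of all 13, and the highest of them lay below the lowest of any other group.

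The fitted log2 fold change of Edn3 between MPTP and Saline was -2.62 (SE 0.238) in Cre- mice, a level 6.13-fold lower. In Cre+ mice it was -0.19 (SE 0.20). Cre+ MPTP lay above Cre- MPTP by 2.03 (SE 0.227) on the log2 scale, and in Saline Cre+ lay below Cre- by a log2 difference of -0.40 (SE 0.213), again with no overlap of the libraries. The difference between the 2 MPTP responses was 2.43 (SE 0.31), in a contrast where 0.0103% of all genes were called at an adjusted p under 0.05, and it ran from 2.24 to 2.55 under the alternative settings. Leaving out Cre- MPTP replicate 1, the shallow library, gave -2.73 for the response in Cre- mice. Edn3 stood above 35.1% of the genes that passed the filter in Cre- Saline, per kilobase of exon, and above 9.96% in Cre- MPTP.

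**Figure D1:**
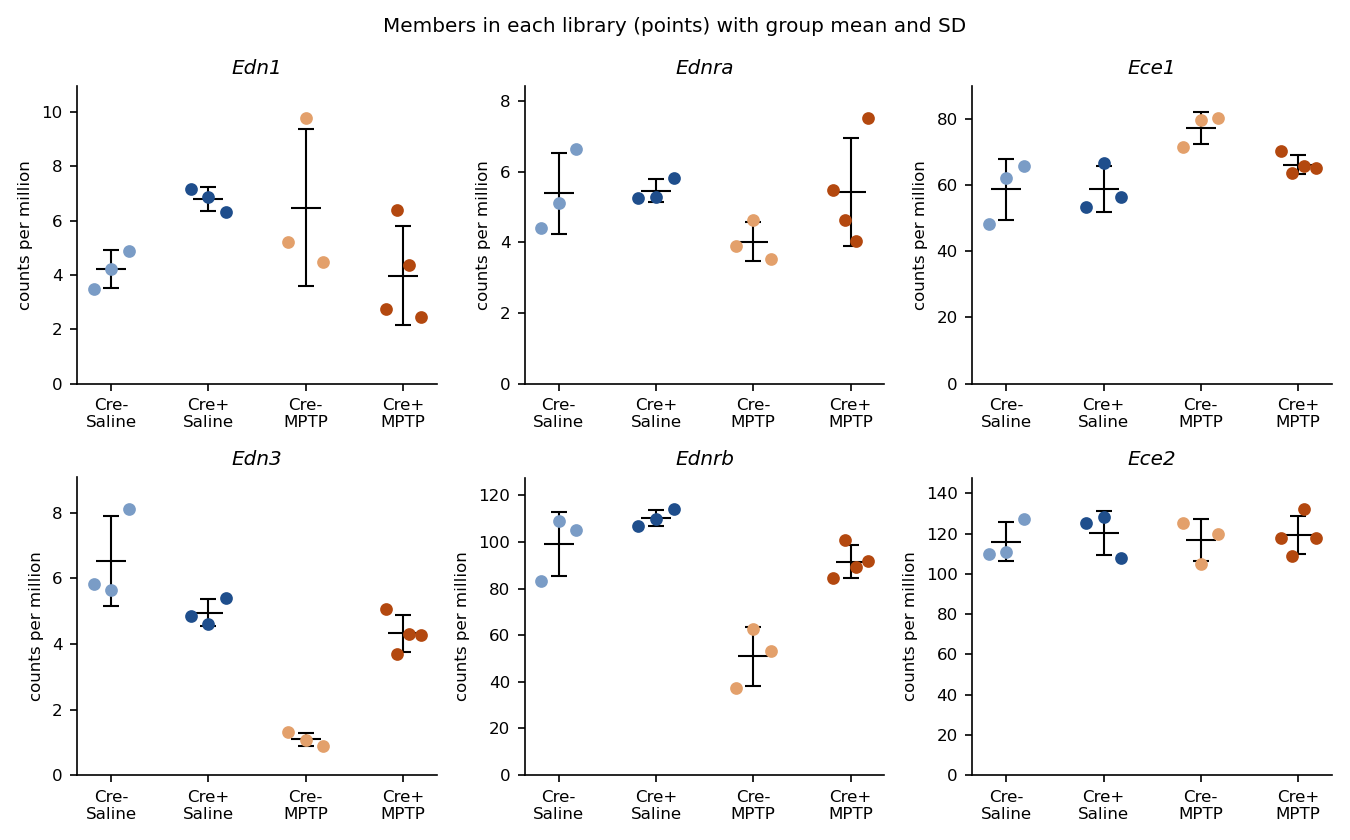
CPM of each member (vertical axes, from 0) in the 13 libraries, with 1 point per mouse and the group mean and SD as a bar. Edn3 and Ednrb are lowest in the 3 Cre- MPTP libraries, Ece1 is highest there, and Ece2 has overlapping points in all 4 groups.

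Edn1 (ENSMUSG00000021367, chr13:42301270-42307989) encodes endothelin-1, the main vasoconstrictor of the family, which endothelial cells secrete. It measured 3.49, 4.22 and 4.89 CPM in Cre- Saline and 7.17, 6.87 and 6.32 CPM in Cre+ Saline. Under MPTP it measured 5.20, 9.78 and 4.46 CPM in Cre- mice and 2.73, 6.38, 4.35 and 2.44 CPM in Cre+ mice. The Saline genotypes did not overlap, while each MPTP group spread over more than 2-fold and overlapped with the other.

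None of the 4 comparisons of Edn1 passed the test (edgeR quasi-likelihood test, Benjamini-Hochberg adjustment over 19360 genes). The log2 fold change between MPTP and Saline was 0.63 (95% interval -0.17 to 1.43, adjusted p = 0.423) in Cre- mice. In Cre+ mice it was -0.78 (-1.52 to -0.04, adjusted p = 1). Between genotypes it was -0.72 under MPTP (-1.47 to 0.03, adjusted p = 0.277) and 0.69 under Saline (-0.11 to 1.49, adjusted p = 1). The fitted difference between the 2 MPTP responses was -1.41 (SE 0.505), opposite in sign to that of Edn3. Across the alternative settings the response of Edn1 in Cre+ mice stayed between -1.10 and -0.61, and that in Cre- mice between 0.19 and 0.85. The difference between genotypes under MPTP ran from -1.03 to -0.28. Without Cre- MPTP replicate 2, the library with the highest Edn1 level, the response in Cre- mice was 0.19 and the difference between genotypes under MPTP was -0.28.

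The third ligand gene, Edn2, did not pass the filter on low counts, and its group means ran from 0.0793 to 0.214 CPM.

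Ednrb (ENSMUSG00000022122, chr14:103814625-103844173, minus strand) encodes the receptor that binds endothelin-3. It measured 83.3, 109 and 105 CPM in Cre- Saline and 107, 110 and 114 CPM in Cre+ Saline. Under MPTP it measured 37.2, 62.5 and 53.1 CPM in Cre- mice and 84.5, 101, 89.1 and 91.9 CPM in Cre+ mice. The Cre- MPTP libraries lay below all 10 others.

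Ednrb fell in Cre- mice given MPTP, with a log2 fold change of -0.96 (95% interval -1.34 to -0.57, edgeR adjusted p = 0.00939), a level 1.94-fold lower. It was the only 1 of the 5 tested members called in this comparison, where 3.18% of all genes were called. Under MPTP, Ednrb was 1.79-fold higher in Cre+ than in Cre- mice (log2 0.84, 0.48 to 1.21, edgeR adjusted p = 0.0298), again as 1 of 5 members, beside 1.54% of all genes. In Cre+ mice the response was -0.27 (-0.63 to 0.08, adjusted p = 1), although the 4 MPTP libraries lay below the 3 Saline libraries. In that comparison edgeR called 0 of the 5 members and 0% of all genes, and 1 member, Edn1, had an unadjusted p under 0.05, as with DESeq2, which called 0 members but 83 of all genes. Limma voom called 0 members and 294 of all genes, and it gave 3 members an unadjusted p under 0.05. Between genotypes under Saline Ednrb differed by 0.16 (-0.22 to 0.54, adjusted p = 1). There edgeR, DESeq2 and limma voom called 0 of 5 members, with 0, 2 and 3 of all genes called (0% with edgeR), and the number of members with an unadjusted p under 0.05 was 0, 0 and 1.

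Both calls of Ednrb were lost in some fits. With only the 2 groups compared in the fit, the log2 fold changes were -0.96 and 0.83, with adjusted p = 0.302 for the response in Cre- mice and 0.298 between genotypes under MPTP (edgeR). Without Cre- Saline replicate 2 the first was -0.89 (adjusted p = 0.0641), and the second lost its call in 9 of the 13 fits that left out 1 library, with values of 0.80 to 0.88. Without the shallow Cre- MPTP replicate 1, whose Ednrb level was the lowest of all and whose neuron, arterial and ependymal markers stood apart, the first was -0.78 (adjusted p = 0.000937) and the second 0.66 (adjusted p = 0.00514). The fitted difference between the 2 MPTP responses was 0.69 (SE 0.241) for Ednrb, given without a test.

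Ednra (ENSMUSG00000031616, chr8:77663031-77724464, minus strand) encodes the receptor of vascular smooth muscle. It measured 4.40, 5.12 and 6.65 CPM in Cre- Saline and 5.24, 5.29 and 5.83 CPM in Cre+ Saline. Under MPTP it measured 3.90, 4.63 and 3.53 CPM in Cre- mice and 5.47, 4.64, 4.04 and 7.52 CPM in Cre+ mice. The highest value, 7.52 CPM, was that of Cre+ MPTP replicate 4, the library with muscle RNA.

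No comparison of Ednra passed the test. In Cre- mice its log2 fold change with MPTP was -0.42 (95% interval -0.97 to 0.13, edgeR adjusted p = 0.431), and in Cre+ mice it was -0.01 (-0.51 to 0.50, adjusted p = 1). Between genotypes it was 0.43 under MPTP (-0.09 to 0.95, adjusted p = 0.337) and 0.02 under Saline (-0.52 to 0.55, adjusted p = 1). Without Cre+ MPTP replicate 4 the response in Cre+ mice was -0.21 and the difference between genotypes under MPTP was 0.24. Opposite to Ednra runs the gene 4933431K23Rik, which shares 91 of its exon bases (1.66%) and had 47 counts in all 13 libraries together.

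Per kilobase of exon, Ednrb exceeded Ednra in every library. The ratio was 25.7, 28.9 and 21.4 in Cre- Saline, 27.8, 28.3 and 26.6 in Cre+ Saline, 12.9, 18.3 and 20.4 in Cre- MPTP, and 21, 29.4, 29.9 and 16.6 in Cre+ MPTP. In Cre- mice the MPTP libraries lay below the Saline libraries, with mean log2 ratios of 4.08 ± 0.343 (SD, n = 3) and 4.65 ± 0.219 (SD, n = 3). The difference of -0.57 had p = 0.1 in a two-sided exact permutation test, the smallest that 3 against 3 libraries can give, and 0.286 after adjustment over the 8 ratio tests. The other 3 comparisons of this ratio had exact p of 0.2 to 0.5 and adjusted p of 0.32 to 0.571.

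**Figure D2:**
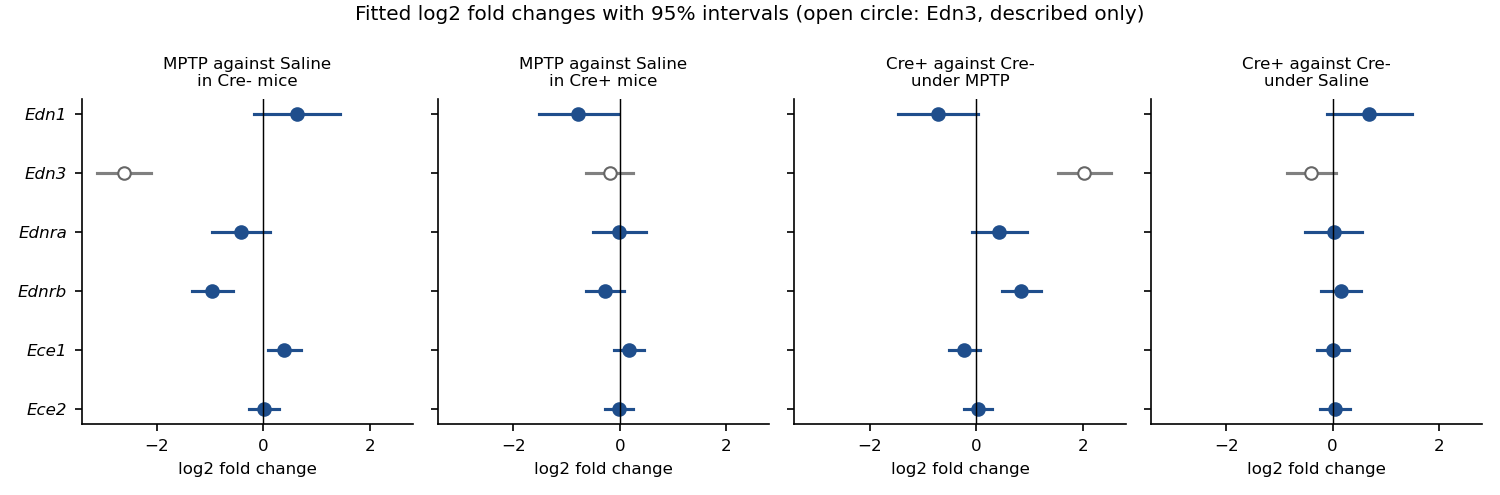
Log2 fold change (horizontal axes) of each member in the 4 comparisons, with 95% intervals from the edgeR fit over all 13 libraries; Edn3, in open circles, is a description only. The intervals of Ednrb lie away from 0 for MPTP in Cre- mice and for the genotypes under MPTP, and those of Ece2 span 0 in all 4 panels.

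Ece1 (ENSMUSG00000057530, chr4:137862237-137965229) encodes the membrane protease that turns big endothelin into the active peptide. It measured 48.3, 61.9 and 65.7 CPM in Cre- Saline and 53.2, 66.6 and 56.3 CPM in Cre+ Saline. Under MPTP it measured 71.5, 79.5 and 80.2 CPM in Cre- mice and 70.1, 63.6, 65.6 and 65.1 CPM in Cre+ mice. All 3 Cre- MPTP libraries lay above the other 10.

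The difference of Ece1 between MPTP and Saline in Cre- mice, 0.40 on the log2 scale (95% interval 0.09 to 0.70), missed the threshold with edgeR (adjusted p = 0.211). It passed with DESeq2 (adjusted p = 0.0461), with limma voom and sample quality weights (adjusted p = 0.0122), and with edgeR without Cre- MPTP replicate 1 (0.45, adjusted p = 0.033). These 3 fits called 1133, 2624 and 1812 of all genes, against 616 in the edgeR fit of all libraries. In Cre+ mice the log2 fold change was 0.17 (-0.12 to 0.46, adjusted p = 1). Between genotypes under MPTP it was -0.22 (-0.51 to 0.06, adjusted p = 0.366), and under Saline it was 0.00 (-0.30 to 0.31, adjusted p = 1).

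Ece2 (ENSMUSG00000022842, chr16:20611593-20646485) encodes a related protease that works at acidic pH and is found in neural tissue. It measured 110 to 127 CPM in Cre- Saline, 108 to 128 CPM in Cre+ Saline, 105 to 125 CPM in Cre- MPTP and 109 to 132 CPM in Cre+ MPTP. The groups overlapped in each comparison. Its log2 fold changes lay between -0.01 and 0.05, and the bounds of the 95% intervals lay between -0.28 and 0.33. The gene model in the files starts upstream of the GENCODE M21 start at 20629828, and RefSeq lists a readthrough with Eef1akmt4 under the same gene, so reads of that neighbour may be part of the Ece2 row.

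Ece1 stood closer to Ece2 in Cre- MPTP than in Cre- Saline. The ratio of Ece1 to Ece2 per kilobase was 0.543, 0.686 and 0.636 in Cre- Saline and 0.706, 0.936 and 0.822 in Cre- MPTP. The mean log2 ratios were -0.69 ± 0.172 (SD, n = 3) and -0.29 ± 0.204 (SD, n = 3), a difference of 0.40 with an exact permutation p = 0.1, the smallest possible, and 0.286 after adjustment. In Cre+ mice the difference was 0.19 (exact p = 0.143, adjusted 0.286), and under MPTP Cre+ lay below Cre- by -0.25 (exact p = 0.114, adjusted 0.286).

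**Figure D3:**
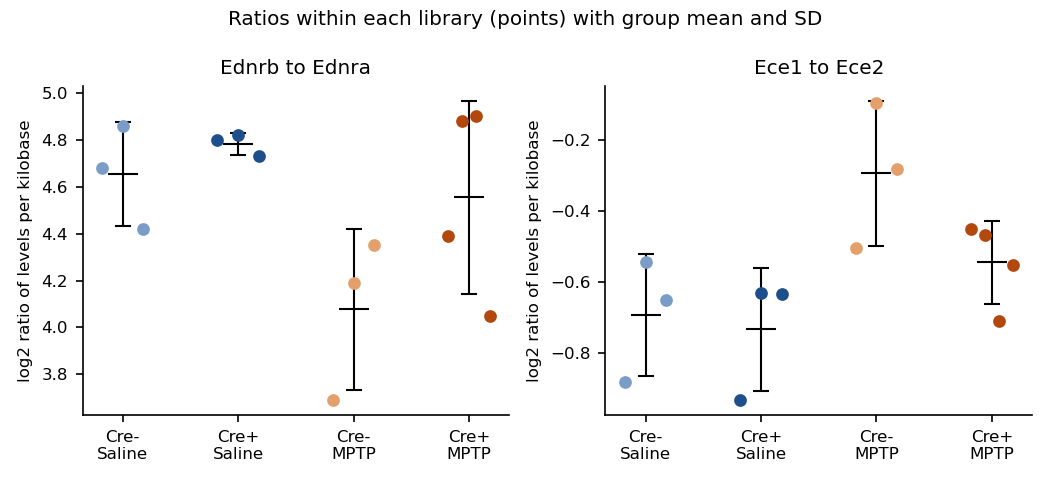
Log2 ratio of Ednrb to Ednra and of Ece1 to Ece2 (vertical axes, levels per kilobase) in each of the 13 libraries, with the group mean and SD. In Cre- mice the MPTP points lie below the Saline points for the receptors and above them for the enzymes.

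Non-overlap of the groups was read against all genes. Edn3, which was chosen by its response, is listed as a description only, and no conclusion is drawn for the members as a set. With MPTP in Cre- mice, 15.1% of all genes had groups that did not overlap, among them Edn3, Ednrb and Ece1. With MPTP in Cre+ mice the share was 9.66%, with Ednrb as the 1 member. Between genotypes it was 11.3% under MPTP, with Edn3, Ednrb and Ece1, and 11.6% under Saline, with Edn1 and Edn3.

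The order of the levels per kilobase was Ednrb, Ece2, Ece1, Edn1, Edn3 and Ednra in both Saline groups and in Cre+ MPTP. In Cre- Saline the means were 24.6, 17.8, 11.1, 1.79, 1.59 and 0.984 CPM per kilobase, and only the neighbours Edn1 and Edn3 overlapped. In Cre+ MPTP Edn1 (1.7) overlapped with Edn3 (1.05), and Edn3 overlapped with Ednra (0.989). In Cre- MPTP the order was Ece2 (17.9), Ece1 (14.5), Ednrb (12.6), Edn1 (2.77), Ednra (0.735) and Edn3 (0.264), and Ece1 and Ednrb overlapped. Edn3 thus moved from the level of Edn1 to the last place, below Ednra without overlap.

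**Figure D4:**
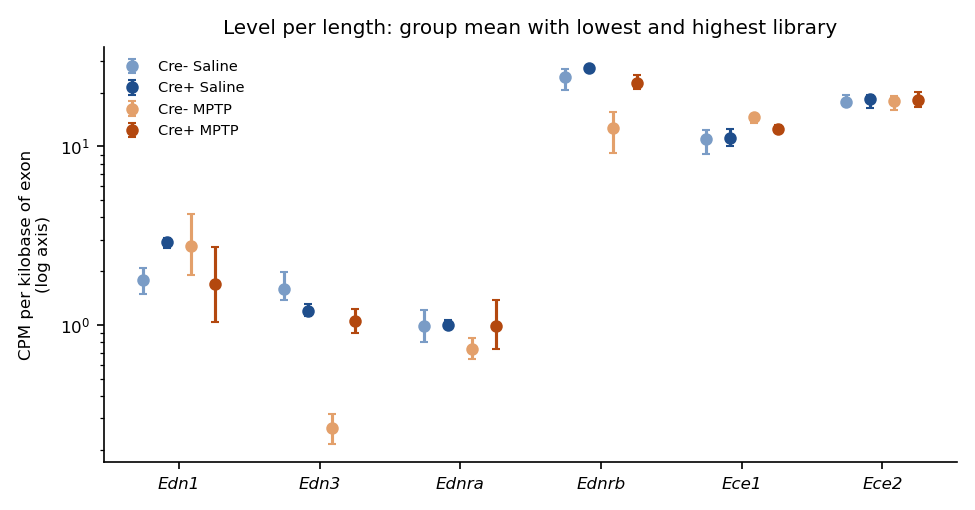
Mean level of each member in CPM per kilobase of exon (vertical log axis), 1 color per group, with bars from the lowest to the highest library. Ednrb, Ece1 and Ece2 stand above the ligands and Ednra in all groups, and Edn3 in Cre- MPTP is the lowest point at 0.264.

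The promoters of Edn3 and Ednrb, are shown because in both genes the 3 Cre- MPTP libraries lay below the other 10. They are the 250 bases before the RefSeq start in GRCm38.p6, at chr2:174760369-174760618 (plus strand) and chr14:103843702-103843951 (minus strand). The Ednrb gene model used for the counts reaches further upstream, to 103844173, so the Ednrb window lies inside that model. Capitals mark matches, on either strand, to the CACCC box or the letters CCAAT.
Edn3: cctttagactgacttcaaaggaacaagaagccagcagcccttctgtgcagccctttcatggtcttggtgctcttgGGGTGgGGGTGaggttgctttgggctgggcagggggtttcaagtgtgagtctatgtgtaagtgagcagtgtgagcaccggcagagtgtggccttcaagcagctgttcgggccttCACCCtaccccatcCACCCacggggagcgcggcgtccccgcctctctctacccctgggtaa
Ednrb: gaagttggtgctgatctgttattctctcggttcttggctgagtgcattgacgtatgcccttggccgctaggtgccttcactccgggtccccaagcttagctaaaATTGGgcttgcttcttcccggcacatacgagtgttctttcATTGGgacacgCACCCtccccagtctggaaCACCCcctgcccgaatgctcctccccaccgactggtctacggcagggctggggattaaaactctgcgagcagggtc
The Edn3 window held 4 matches to CACCC, and 2.1% of 32851 mouse promoters held 4 or more. The Ednrb window held 2 matches to CACCC, which 52% of all promoters hold at least once, and 2 matches to CCAAT, which 33.8% hold. The matches did not overlap. Neither window held the GC box GGGCGG (in 32.7% of promoters), the TATA box TATAAA (12.4%) or the AP-1 site TGANTCA (6.7%). The windows had 59.2% and 56.8% G and C, against a median of 52.4%. Of the other members, Edn1 and Ece2 each had 2 matches to CACCC and 1 to CCAAT. Ednra had 0 of both, and the windows of Ece1 held 0 to 2 of each. A link between these motifs and the levels was not tested.

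Beyond the members, the peptide processing and clearance list had 9 of 11 genes tested. With MPTP in Cre- mice 1 of them was lower and 0 were higher, in a comparison where edgeR called 3.18% of all genes. Pcsk6, a proprotein convertase of the furin family, measured 29.4, 29.7 and 38.1 CPM in Saline and 16.6, 20.4 and 21.4 CPM in MPTP (log2 -0.73, SE 0.167, edgeR adjusted p = 0.0324). Furin had a log2 fold change of 0.68 (SE 0.256, adjusted p = 0.241). The median of the list was -0.02, against 0.03 for all genes.

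Of 28 genes of receptor coupling and desensitization, 1 was higher and 1 lower with MPTP in Cre- mice (median 0.11, all genes 0.03), beside 3.18% of all genes called. Gna12, a G protein alpha subunit, measured 145, 181 and 197 CPM in Saline and 127, 80.6 and 76.3 CPM in MPTP (log2 -0.88, SE 0.188, edgeR adjusted p = 0.0217). Prkcd, protein kinase C delta, measured 19.6, 18.0 and 18.8 CPM in Saline and 38.0, 34.5 and 32.2 CPM in MPTP (log2 0.89, SE 0.136, adjusted p = 0.0031). In Cre+ MPTP Prkcd measured 18.1, 22.2, 18.7 and 17.5 CPM, lower than in Cre- MPTP (log2 -0.86, SE 0.125, edgeR adjusted p = 0.00885). It was the 1 gene of the list called between genotypes under MPTP, where 1.54% of all genes were called.

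The 14 genes of nitric oxide, natriuretic peptide and adrenomedullin signaling and the 13 transcription factors known at the Edn1 promoter had 0 calls with edgeR in all 4 comparisons. Of all genes edgeR called 3.18% with MPTP in Cre- mice and 1.54% between genotypes under MPTP. With MPTP in Cre- mice the 2 lists held 3 and 2 genes with an unadjusted p under 0.05, and between genotypes under MPTP 5 and 5. With MPTP in Cre+ mice and between genotypes under Saline, edgeR called 0% of all genes, and so 0 genes of the 4 pathway lists. In these comparisons 2 and 1 transcription factors of the Edn1 promoter, with 0 genes of the other lists, had an unadjusted p under 0.05. Between genotypes under MPTP edgeR called 0 genes of the processing list, with 3 at an unadjusted p under 0.05.

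The genes whose levels were most like those of Edn3 over the 13 libraries were Gpr37 (Pearson r = 0.955 of log2 CPM), Cxcl12 (0.953), Tmprss5 (0.952), Cmtm5 (0.942), P2ry12 (0.942), Csrp1 (0.938), Ushbp1 (0.935), Pltp (0.934), Abcc6 (0.933) and Tmem98 (0.932), among 16005 candidates. These points share library and group, and the order rests on Cre- MPTP. Gpr37, an orphan receptor of oligodendrocytes and dopaminergic neurons, measured 73.9, 79.0 and 69.3 CPM in Cre- MPTP and 127 to 191 CPM elsewhere. P2ry12, the microglial ADP receptor, measured 2.49, 3.41 and 3.57 CPM in Cre- MPTP and 12.7 to 26 CPM elsewhere. After the group means were subtracted, the r with Edn3 was 0.301 for Gpr37 and -0.715 for P2ry12. With the group means subtracted the leading genes were others, Pcdhgb6 (0.902), Pik3ap1 (0.887), Ears2 (0.873), Plcb2 (0.868) and Tnks1bp1 (0.861) first. With Spearman's rank correlation, 1 of the 10 genes stayed among the 10 most alike.

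Ednrb had closer partners, and their r stayed high after the group means were subtracted. The shallow Cre- MPTP replicate 1 held the lowest value of Ednrb and of each of these partners, and r without it was not computed. Ugt8a, the enzyme of myelin galactolipid synthesis, had r = 0.988 over the 13 libraries and 0.934 after the group means were subtracted. Serpinb1a, a protease inhibitor, had 0.979 and 0.927, Enpp1 had 0.981 and 0.905, Sox2ot had 0.982 and 0.919 and Gm10863 had 0.985 and 0.933. Ugt8a measured 14.6, 43.8 and 31.3 CPM in Cre- MPTP, in the same order as Ednrb, and 72.9 to 130 CPM in the other libraries. Edn3 and Ednrb themselves had r = 0.847 over all libraries and -0.348 within groups.

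Edn1 was most like Apold1 (r = 0.861), Ccn1 (0.834), Fos (0.825), Klf6 (0.797) and Lif (0.792). Apold1, an early response gene of endothelium, measured 4.40 to 11.2 CPM in Cre- Saline, 46.3 to 67.4 CPM in Cre+ Saline, 60.2, 41.6 and 10.8 CPM in Cre- MPTP, and 4.18 to 25.8 CPM in Cre+ MPTP. Ccn1, a matricellular growth factor, measured 2.38 to 9.79 CPM in Cre- Saline and 30.1 to 38.8 CPM in Cre+ Saline. Cre+ MPTP replicate 2, where Edn1 was highest within its group, was also highest there for Apold1, for Ccn1 (26.9 CPM) and for Fos (33.7 CPM). Fos, an immediate-early transcription factor, had r = 0.882 with Edn1 within groups.

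Ednra was most like Angptl2 (r = 0.843), Sspn (0.841), Itga9 (0.837), Mmp2 (0.827) and Col14a1 (0.824). In Cre+ MPTP replicate 4 these 5 genes measured 9.77, 50.7, 18.4, 7.29 and 4.04 CPM, in each case the highest of the 13 libraries. Ece1 was most like Fbh1 (0.913), Rapgef2 (0.912), Pprc1 (0.909), Lrp1 (0.884) and Spen (0.88), and Ece2 like Celsr1 (0.838), Nkd2 (0.83), Per3, Pou3f4 (0.816) and Ap3b2 (0.816).

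Marker genes of cell types were set beside Edn3 and Ednrb. The 10 oligodendrocyte markers summed to 13000 to 18000 CPM in Cre- Saline, 15600 to 17600 in Cre+ Saline, 9590 to 12200 in Cre- MPTP and 11600 to 14900 in Cre+ MPTP. With MPTP in Cre- mice 3 of the 10 fell (Cnp, Mog and Opalin) and 0 rose, with a median of -0.47. In this comparison edgeR called 3.18% of all genes. With MPTP in Cre+ mice the median was -0.36, with 0 calls among these markers and 0% among all genes. The groups did not overlap for 5 of the 10 markers in Cre- mice (15.1% of all genes) and for 7 in Cre+ mice (9.66%). The fall of these markers was thus not limited to Cre- mice. The 12 pericyte and smooth muscle markers summed to 356 to 425 CPM in Cre- Saline, 356 to 367 in Cre+ Saline, 239 to 302 in Cre- MPTP and 326 to 587 in Cre+ MPTP. The sum of 587 CPM was that of Cre+ MPTP replicate 4, the library with muscle RNA. Cre+ MPTP replicates 1, 2 and 3 had 338, 352 and 326 CPM, below Cre+ Saline. Of these 12 markers 1 fell in Cre- mice (Vtn, log2 -1.03, SE 0.195, edgeR adjusted p = 0.0108), with a median of -0.70. Of the 12 astrocyte markers 1 rose (Aldh1l1) and 0 fell, with a median of 0.15 and sums of 4780 to 5650 CPM in Cre- Saline and 4040 to 5720 in Cre- MPTP. The sum of 4040 CPM was that of the shallow Cre- MPTP replicate 1, and replicates 2 and 3 had 5680 and 5720 CPM. Of the 10 microglial markers 3 were called lower (P2ry12, Fcrls and Siglech) and 0 higher, with a median of -0.14. Other microglial markers went the other way without a call, C1qa and C1qb the furthest (log2 1.22 each). The microglial sums were 299 to 361 CPM in Cre- Saline and 242 to 489 in Cre- MPTP. The sum of 489 CPM was again that of Cre- MPTP replicate 1, and replicates 2 and 3 had 242 and 392 CPM. Between genotypes under MPTP, 1 oligodendrocyte marker was higher in Cre+ mice (Opalin), as were 3 microglial markers, where edgeR called 1.54% of all genes. Of the pericyte and smooth muscle markers and of the astrocyte markers edgeR called 0, with 5 and 6 at an unadjusted p under 0.05. All of these markers had counts in every library, and their part in the results for Edn3 and Ednrb was not tested.

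**Figure D5:**
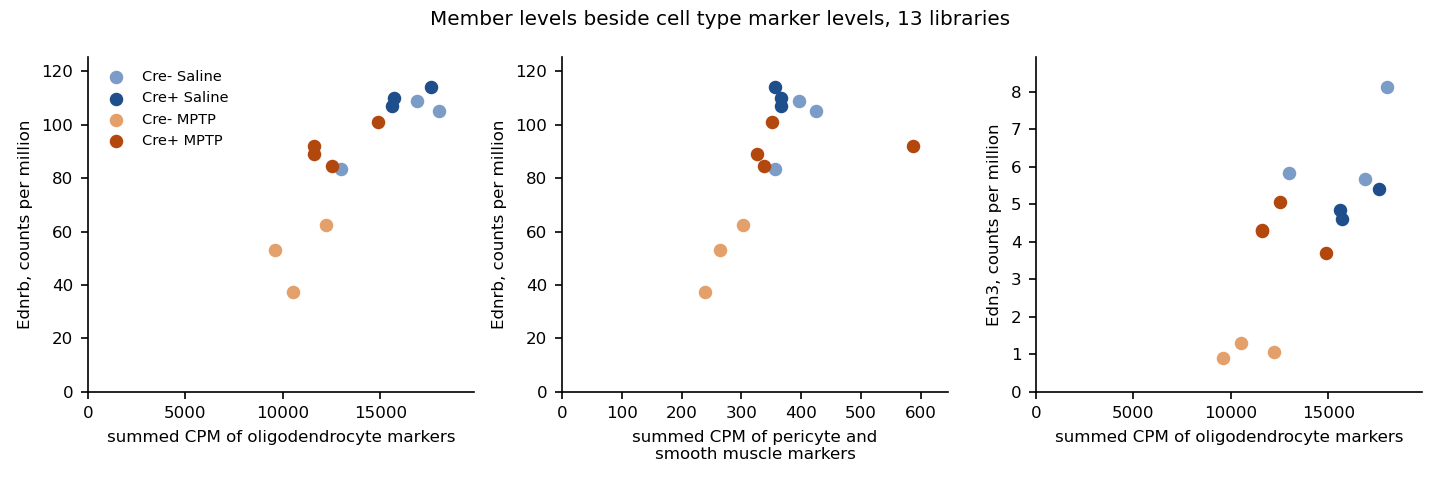
CPM of Ednrb (left and middle) and Edn3 (right) against the summed CPM of 10 oligodendrocyte or 12 pericyte and smooth muscle markers, 1 point per library. The 3 Cre- MPTP points are the lowest on the vertical axis in each panel, and the point at 587 CPM is Cre+ MPTP replicate 4.

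Markers of endothelium and of arteries, where Edn1 is made, were also counted. Of 12 endothelial markers 1 was called lower with MPTP in Cre- mice (Tek, log2 -1.81, SE 0.285, edgeR adjusted p = 0.00374), and their median was 0.08. Others went the other way without a call, among them Cldn5 (log2 0.935) and Ly6c1 (0.812). Of 12 arterial markers 1 fell (Gkn3, log2 -4.99, SE 0.668, adjusted p = 0.00185), and the median was -0.14. Between genotypes under MPTP, Tek (log2 1.88, SE 0.275, edgeR adjusted p = 0.00907), Kdr (log2 1.28, SE 0.279, adjusted p = 0.0421) and Gkn3 (log2 3.14, SE 0.652, adjusted p = 0.0365) were higher in Cre+ mice, and 0 markers of the 2 lists were called lower. The medians of the 2 lists were 0.14 and 0.03. Other markers lay below 0 without a call, among them Cldn5 (log2 -1.2) and Hey1 (-0.685). The endothelial sums were 413 to 442 CPM in Cre- Saline, 345 to 399 in Cre+ Saline, 394 to 586 in Cre- MPTP and 402 to 531 in Cre+ MPTP. The sum of 586 CPM was that of the shallow Cre- MPTP replicate 1, and replicates 2 and 3 had 394 and 433 CPM. The lowest sum, 345 CPM, was in Cre+ Saline, the group in which all 3 Edn1 values lay above Cre- Saline. In replicates 1, 2 and 3 of that group pituitary genes summed to 1050, 448 and 900 CPM, and Edn1 measured 7.17, 6.87 and 6.32 CPM. The part of endothelial or pituitary RNA in the Edn1 values was not tested.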

How the data were processed

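The authors made stranded total RNA libraries from midbrain and sequenced them. Per the labels, reads were trimmed with Trimmomatic 0.36, mapped to GRCm38 with STAR 2.5.2b and assigned to genes with featureCounts of Subread 1.5.2; the strand setting of the counting is not given in the sources used here. The deposited values are raw counts per gene, whole numbers without normalization. Each library is 1 mouse, and groups follow the genotype and treatment of the labels.

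Counts were tested with edgeR 4.0.16 in R 4.3.3: TMM scaling, at least 10 counts in at least 3 libraries, 1 term per group over all 13 libraries, the quasi-likelihood test and Benjamini-Hochberg adjustment over all genes, called at an adjusted p under 0.05. The SE is the absolute log2 fold change divided by the square root of F, and 95% intervals use the t distribution. DESeq2 1.42.0 and limma 3.58.1 (voom) were alternatives. The test scripts were checked on simulated counts. Named genes were the members, called genes of 4 pathway lists (another list is not reported here), and the 10 (Edn3) or 5 genes with the largest Pearson r of log2 CPM (prior count 2, mean CPM of at least 1); individual marker genes were given where called. The members and lists were chosen with earlier results of these data known.

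Replicate numbers were checked for pairing: of 18 pairs of same-numbered libraries, 3 had correlated deviations with r over 0.1 (range -0.179 to 0.184), so they were not treated as pairs. Totals of 11489150 to 29397278 counts limit precision for genes with few counts, such as Edn3 in Cre- MPTP. Promoters came from RefSeq (GRCm38.p6), where all 6 members matched. Symbols matched for 49056 of 49315 genes.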

Additional observations from a re-analysis of the deposited data

Results flagged for a closer look

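Edn3 was listed because the fitted MPTP responses of the 2 genotypes differed, by 2.43 on the log2 scale (SE 0.31, Cre+ minus Cre-). The gene was selected for this value, so it is a description. The value stayed between 2.24 and 2.55 in the alternative settings, which refit the same libraries and are no separate evidence. No member had a library far from its group in Cre+ MPTP, the only group of 4; groups of 3 were not examined for this.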

How the results depend on the processing

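Of 420 refitted values for the 5 tested members, 377 kept their direction and their side of the threshold, 13 lost a call, 4 gained one and 26 changed sign. With MPTP in Cre- mice, DESeq2, limma voom and the fit without Cre- MPTP replicate 1 and Cre+ MPTP replicate 4 each called 2 members (Ednrb and Ece1), with 1133, 2624 and 1923 genes called in all against 616, the fit of only the 2 groups called 0, and leaving out 1 library gave 0 to 2. Between genotypes under MPTP, the fit of only the 2 groups called 0, leaving out 1 library gave 0 to 1, and the replicate block called 0, with Ednrb at 0.86 (edgeR adjusted p = 0.0834). The replicate block, used although the numbers do not pair the mice, changed no other call of a member; over all genes it called 428 with MPTP in Cre- mice and 0 between genotypes under MPTP, against 616 and 299. The cause of these changes was not tested.

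Sign changes were limited to values near 0. Leaving out 1 library moved Ednra between -0.21 and 0.11 (MPTP in Cre+ mice) and between -0.11 and 0.20 (genotypes under Saline), Ece1 between -0.12 and 0.10 (genotypes under Saline), and Ece2 between -0.0409 and 0.073 (MPTP in Cre- mice), -0.0877 and 0.0308 (MPTP in Cre+ mice) and -0.0349 and 0.0803 (genotypes under MPTP). Ece1 between genotypes under Saline was -0.0745 with limma voom and -0.000205 without the filter. Ece2 was -0.0155 without the filter and -0.0305 without both libraries that stand apart (MPTP in Cre- mice), 0.0176 with limma voom and 0.000161 without both libraries (MPTP in Cre+ mice), and -0.000562 with DESeq2 size factors (genotypes under MPTP). The Ece1 to Ece2 ratio between genotypes under Saline was 0.017 with medians and -0.135 to 0.059 without 1 library.

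The exact permutation tests of the ratios could not go below p = 0.1 for 3 against 3 mice. Edn3 had 12 to 27 counts in Cre- MPTP, the fewest of the members.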
